A study of Mus musculus with 6 samples.

Results

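Mitochondria are reshaped continuously. Mitofusins join the outer membranes of neighbouring mitochondria, OPA1 joins the inner membranes and holds the folds called cristae, and the dynamin DRP1, drawn to the outer membrane by receptors, pinches mitochondria apart. Brown fat cells are packed with mitochondria whose dense cristae carry the uncoupling protein UCP1, and fission of these mitochondria is known to accompany thermogenic stimulation. The 10 genes described here encode such fusion, fission and inner membrane shape factors, and they were chosen by name as the rows for Mfn1, Mfn2, Opa1, Oma1, Dnm1l, Fis1, Mff, Mief1, Immt and Letmd1 among 19241 genes in the deposited table.

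Bulk RNA-seq libraries, 3 WT and 3 KO, were made from the entire interscapular brown fat of newborn animals. WT mice carried a floxed Fstl1 gene, and KO mice lacked Fstl1, the gene of a secreted glycoprotein, in the Myf5 lineage. Myf5 is switched on in precursors of skeletal muscle and of much of the interscapular brown fat, so vessels, nerves, blood cells and macrophages of the depot lie largely outside the lineage in which the gene was removed. The labels do not say whether a library is 1 animal or a pool, so the p-values measure the spread between these libraries. Values are FPKM, that is, fragments scaled to transcript length and to the mapped fragments of the library.

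The targeted gene followed the labels: Fstl1 was at 54.4 to 130.04 FPKM in WT and at 7.93 to 13.1 FPKM in KO. All 14 brown fat markers were above 0 in every library. Ucp1 ranged over 4366 to 6255 FPKM in WT and 1695 to 3592 FPKM in KO, without overlap and with a KO mean of 48.9% of WT (limma, log2 difference −1.08, adjusted p 0.0804). Sex coincided with genotype, since Xist was at 44.8 to 85.5 FPKM in WT and at most 0.92 FPKM in KO, while the Y-linked Eif2s3y was at 83.7 to 99.3 FPKM in KO and at most 0.08 FPKM in WT. Effects of genotype and sex cannot be told apart in any difference given here. KO replicate 1 stood apart in skeletal muscle RNA: the 12 muscle markers summed to 330.3 FPKM at the lowest in KO, in that library, and to 1312 to 1916 FPKM in WT. Blood RNA was highest in WT replicate 3, where 8 red cell markers reached a sum of 14400 FPKM.

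None of the 10 genes passed the test between KO and WT, and for 8 of them the groups overlapped. All 10 had a mean of at least 0.5 FPKM and were tested, and 0 passed an adjusted p of 0.05 (limma on log2(FPKM + 1), Benjamini-Hochberg adjustment over 13331 genes), where 2.21% of all genes tested passed. In the KO mean 7 genes were lower and 3 higher, with a median log2 difference of −0.12 against 0.01 over all genes tested. The KO and WT values did not overlap in 24.9% of all genes tested in either direction, and in 11.4% with KO lower. Among the 10 genes they did not overlap for 2, Oma1 and Letmd1, both lower in KO. These also were the 2 with an unadjusted p under 0.05 (limma, 0.0281 and 0.0211), which 19.2% of all genes tested had. With 3 libraries a group the 95% confidence intervals of the log2 differences reached 0.30 to 0.41 to each side, so shifts of that size in the other 8 genes were not resolved. In bulk RNA fewer cells of a type and less RNA per cell cannot be told apart.

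**Figure D1:**
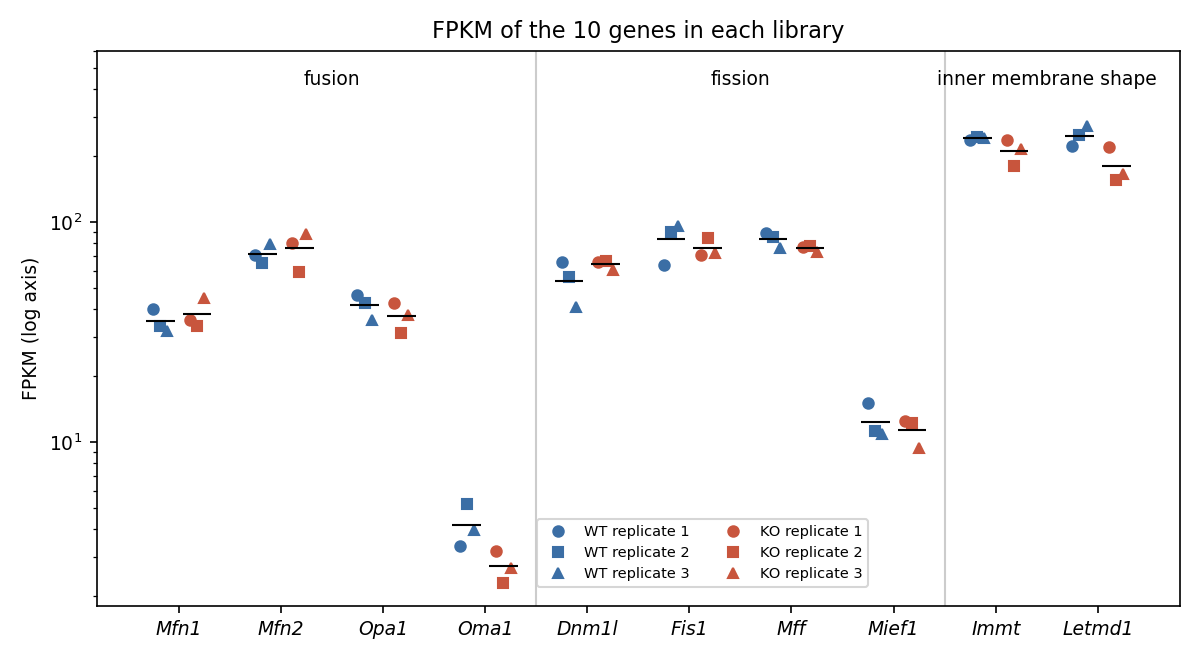
FPKM of the 10 genes (log axis) in each of the 3 WT and 3 KO libraries, with marker shapes for the replicates and black lines for the group means. Only for Oma1 and Letmd1 do all KO points lie below all WT points, and Immt and Letmd1 stand highest in all 6 libraries.

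The transcripts differed widely in level, and FPKM, being per length, allow the genes to be ranked. Immt, which encodes the mitofilin scaffold of cristae junctions, had the highest mean over the 6 libraries at 225.2 FPKM, above 97.3% of the genes tested. Letmd1 followed at 213.1 FPKM, and the ranges of these 2 genes overlapped. Then came a middle group: the fission receptor gene Mff at 79.6 FPKM, Fis1 at 79.6, Mfn2 at 73.7, Dnm1l at 59.2, Opa1 at 39.5 and Mfn1 at 36.7 FPKM. No neighbours within this group had separate ranges, although Dnm1l was above Opa1 in each of the 6 libraries. Mief1 lay lower at 11.8 FPKM. Oma1 was the lowest at 3.45 FPKM, above only 29.3% of the genes tested. Of the 9 steps in this order, 3 separated ranges without overlap: Letmd1 to Mff, Mfn1 to Mief1 and Mief1 to Oma1.

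Outer membrane fusion depends on the mitofusins, 2 related GTPases that bridge apposing mitochondria. Mfn1 (Entrez gene 67414, GRCm38 chr3:32529443-32579225) stood at 40.1, 33.8 and 32.02 FPKM in WT replicates 1, 2 and 3, against 35.7, 33.8 and 44.9 FPKM in KO replicates 1, 2 and 3. Apart from the high KO replicate 3 the groups covered the same range. The means were 35.3 ± 4.26 and 38.1 ± 5.93 FPKM (SD, n = 3 each). Mfn1 thus differed by 0.10 on the log2 scale, with a 95% interval of −0.26 to 0.47 (limma, adjusted p 0.775), and it was −0.017 without KO replicate 3.

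Mfn2 (170731, chr4:147873586-147904909), which also tethers mitochondria to the endoplasmic reticulum and, in brown fat, to lipid droplets, was the more abundant mitofusin transcript. It stood at 70.9, 64.7 and 79.1 FPKM in the WT libraries, against 80.2, 59.1 and 88.1 FPKM in the KO libraries. KO replicates held both the lowest and the highest value. Its log2 difference was 0.07, interval −0.33 to 0.47 (limma, adjusted p 0.879), and without KO replicate 3 it was −0.051. Within a library there was 1.77, 1.92 and 2.47 times as much Mfn2 as Mfn1 in WT and 2.25, 1.75 and 1.96 times as much in KO. The geometric means of this ratio were 2.03 and 1.98 (exact two-sided permutation test, p 0.9). Its direction turned without WT replicate 3 or without KO replicate 2.

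Inner membrane fusion is carried by OPA1, and OMA1 is a stress-activated protease that cleaves OPA1 into its short, fusion-inactive form. Opa1 (74143, chr16:29579281-29663127) stood at 46.7, 42.6 and 35.9 FPKM in the WT libraries, against 42.6, 31.2 and 37.8 FPKM in the KO libraries. The groups overlapped, with KO replicate 2 the lowest library. The KO mean was 89.1% of the WT mean, and the log2 difference was −0.17, interval −0.54 to 0.21 (limma, adjusted p 0.630).

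Oma1 (67013, chr4:103311875-103371869) stood at 3.35, 5.23 and 3.96 FPKM in the WT libraries, against 3.19, 2.29 and 2.66 FPKM in the KO libraries. All 3 KO libraries lay below all 3 WT libraries, by the narrow gap between KO replicate 1 and WT replicate 1. The means were 4.18 ± 0.959 and 2.71 ± 0.452 FPKM (SD, n = 3 each), with the KO mean at 64.9% of WT. On the log2 scale the difference was −0.47 with a standard error of 0.18 and an interval of −0.88 to −0.06, and it did not pass over all genes (limma, adjusted p 0.202). An estimated 66 to 151 reads per library lay behind these values, a counting error of 8.14% to 12.3%, against coefficients of variation between replicates of 22.95% in WT and 16.7% in KO. The gap between WT replicate 1 (an estimated 93 reads) and KO replicate 1 (85 reads) was smaller than that counting error. Without WT replicate 2, the highest library, the log2 difference was −0.33.

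The Opa1 to Oma1 ratio, which sets the substrate beside its protease, was 13.9, 8.14 and 9.08 in WT and 13.3, 13.6 and 14.2 in KO. WT replicate 1 lay among the KO libraries and the other WT libraries below them. Geometric means were 10.1 and 13.7, a log2 difference of 0.44 (exact two-sided permutation test, p 0.3, adjusted over the 4 ratios tested 0.6). Without 1 library the log2 difference ran from 0.29 to 0.67. It was largest without WT replicate 1, the WT library that overlapped KO.

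Fission needs DRP1, the dynamin encoded by Dnm1l, and outer membrane proteins that recruit it. Dnm1l (74006, chr16:16312228-16359038) stood at 65.6, 56.05 and 40.8 FPKM in the WT libraries, against 65.8, 66.5 and 60.3 FPKM in the KO libraries. It had the largest positive difference of the 10 genes, with WT replicate 3 far below the rest and WT replicate 1 level with the KO libraries. Means were 54.1 ± 12.5 and 64.2 ± 3.41 FPKM (SD, n = 3 each), and the log2 difference was 0.27, interval −0.15 to 0.68 (limma, adjusted p 0.463). Without WT replicate 3 it was 0.080.

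Mff (75734, chr1:82724890-82752390), the main DRP1 receptor in mammals, stood at 88.9, 84.99 and 76.1 FPKM in the WT libraries, against 77.1, 77.6 and 73.2 FPKM in the KO libraries. KO values were close to each other and overlapped the lowest WT library. The log2 difference was −0.13, interval −0.43 to 0.17 (limma, adjusted p 0.631). Set against Mff within each library, Dnm1l came to 0.74, 0.66 and 0.54 in WT and to 0.85, 0.86 and 0.82 in KO. This was the single ratio of the 4 tested in which the groups did not overlap. Geometric means were 0.64 and 0.85, a log2 difference of 0.40 (exact two-sided permutation test, p 0.1, the smallest that 3 against 3 can give, adjusted over 4 ratios 0.4). Without WT replicate 3 the log2 difference of the ratio was 0.28.

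Fis1 (66437, chr5:136953275-136966234) encodes a small tail-anchored outer membrane protein linked to fission and mitophagy. Its FPKM were 63.7, 90.3 and 96.01 in WT and 70.9, 84.3 and 72.4 in KO, so that every KO library lay inside the WT range. KO minus WT was −0.12 on the log2 scale, interval −0.52 to 0.29 (limma, adjusted p 0.775). Mief1 (239555, chr15:80233964-80253372) encodes MiD51, an adaptor that binds DRP1 at the outer membrane. It stood at 14.97, 11.2 and 10.8 FPKM in the WT libraries, against 12.4, 12.2 and 9.33 FPKM in the KO libraries, also with overlap. Here the log2 difference was −0.11, interval −0.51 to 0.30 (limma, adjusted p 0.793), and it turned to 0.031 without WT replicate 1 and to 0.016 without KO replicate 3.

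**Figure D2:**
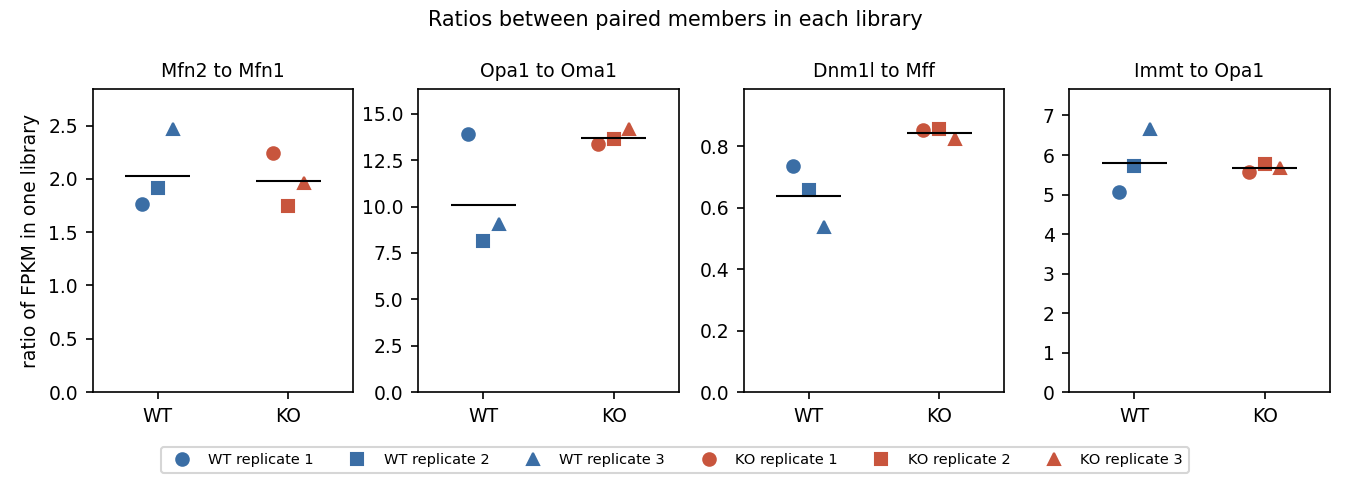
Ratio of FPKM between 2 genes within each library, for 4 pairs, with points for the 3 WT and 3 KO libraries and lines for the geometric means. The Dnm1l to Mff ratio runs from 0.54 to 0.74 in WT and from 0.82 to 0.86 in KO, while the other 3 ratios overlap.

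The inner membrane genes were the most abundant and both lower in the KO mean. Immt (76614, chr6:71831091-71875266) was at 236.6, 243.8 and 239.7 FPKM in WT, the tightest group of any member with a coefficient of variation of 1.52%. In KO it was at 236.7, 180.06 and 214.2 FPKM. KO replicate 1 matched WT and the other KO libraries were below it. The log2 difference was −0.20, interval −0.52 to 0.13 (limma, adjusted p 0.487). Relative to Opa1, Immt was at 5.07, 5.73 and 6.67 in WT and at 5.56, 5.77 and 5.67 in KO, with geometric means of 5.79 and 5.67 (exact two-sided permutation test, p 0.8).

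Letmd1 (68614, chr15:100462421-100479252) encodes a mitochondrial inner membrane protein of the LETM1 domain family that is enriched in brown fat and needed there for normal cristae and thermogenesis. It stood at 220.8, 247.9 and 271.7 FPKM in the WT libraries, against 218.3, 155.2 and 164.7 FPKM in the KO libraries. The groups were apart, but KO replicate 1 came within a few FPKM of WT replicate 1. Means were 246.8 ± 25.5 and 179.4 ± 34.01 FPKM (SD, n = 3 each), with the KO mean at 72.7% of WT. This came to a log2 difference of −0.47 with a standard error of 0.17 and an interval of −0.85 to −0.09, with the smallest p of the 10 genes, and it did not pass over all genes (limma, adjusted p 0.181). Leaving out KO replicate 1 gave −0.62 and leaving out KO replicate 2 gave −0.37. Summed macrophage marker levels were 122.9 to 181.6 FPKM in WT and 170.2 to 234.6 FPKM in KO over 10 genes, all 10 of them higher in the KO mean and none past the test. Of the 14 brown fat markers 9 were lower and 5 higher in the KO mean, and 2 fell, Elovl3 (limma, log2 difference −2.34, adjusted p 0.0151) and Plin1 (limma, −1.36, adjusted p 0.0267). Their score, the mean deviation of log2(FPKM + 1) from each gene's own mean, separated the groups, with 0.15 to 0.37 in WT and −0.39 to −0.04 in KO. Their sum, to which Fabp4 adds most, did not separate them (23250 to 30230 FPKM in WT, 23260 to 25260 FPKM in KO). The part of either in the Letmd1 difference was not tested.

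**Figure D3:**
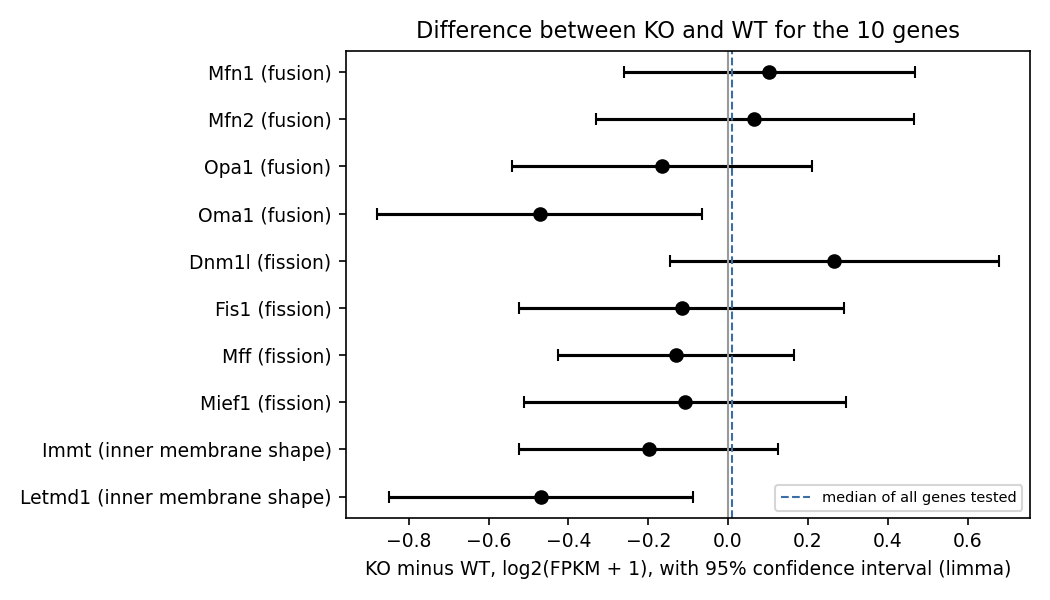
Difference between KO and WT on the log2(FPKM + 1) scale for each gene, with points for the estimate and bars for the 95% confidence interval from limma; the dashed line is the median of all genes tested. The intervals of Oma1 and Letmd1 lie below 0 before adjustment for the number of genes tested, and the other 8 include 0.

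The promoters of Letmd1 and Oma1, the genes whose groups did not overlap, and of Opa1, the substrate of OMA1, are shown as the 250 bases before the RefSeq transcript start in GRCm38.p6, on the plus strand. In all 3 this start lies inside the span of the annotated gene. Capitals mark matches, on either strand, to the words searched: CGCNTGCGC for NRF1 and CCGGAAGT for GABPA, factors known to drive nuclear genes of mitochondrial proteins, AAGGTCA for estrogen-related receptors, and the CCAAT box. The windows are chr15:100468761-100469010, chr4:103313596-103313845 and chr16:29579084-29579333.
Letmd1: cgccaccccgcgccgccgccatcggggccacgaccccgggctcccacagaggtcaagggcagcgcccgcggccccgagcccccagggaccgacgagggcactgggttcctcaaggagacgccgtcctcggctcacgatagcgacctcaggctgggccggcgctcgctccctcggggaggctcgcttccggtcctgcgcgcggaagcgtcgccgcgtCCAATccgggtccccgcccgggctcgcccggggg
Oma1: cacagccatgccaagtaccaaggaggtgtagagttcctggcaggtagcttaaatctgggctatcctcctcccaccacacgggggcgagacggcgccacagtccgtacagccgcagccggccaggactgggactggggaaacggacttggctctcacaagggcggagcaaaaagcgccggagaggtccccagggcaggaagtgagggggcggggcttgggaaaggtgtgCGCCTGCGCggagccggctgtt
Opa1: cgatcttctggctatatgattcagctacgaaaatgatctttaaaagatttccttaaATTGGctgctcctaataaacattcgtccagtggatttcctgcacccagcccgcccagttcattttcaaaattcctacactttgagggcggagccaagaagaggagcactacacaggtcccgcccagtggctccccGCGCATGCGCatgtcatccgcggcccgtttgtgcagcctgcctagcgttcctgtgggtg

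In these windows Opa1 and Oma1 each held an NRF1 word, and in Opa1 overlapping matches lie on both strands. Letmd1 held a CCAAT box alone. Over the 15 windows of the 10 genes, 2 genes had an NRF1 word, 3 a GABPA word (Mfn1, Fis1 and Mief1), 7 a CCAAT box and 0 the receptor word. Among all 27025 genes with such windows the shares were 5.86%, 3.23%, 37.5% and 4.70%. Those genes had 32851 windows, fewer per gene than the 10 genes had, and were not limited to the genes tested here. The shares are therefore not matched to the 10 genes. A match to these letters is a description and does not show that a factor binds.

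Seen by library, low values gathered in KO replicate 2. It was the lowest library for 5 of the 10 genes: Mfn2, Opa1, Oma1, Immt and Letmd1. The share of all genes tested with their lowest value in that library was not counted, so the pattern may not be particular to the 10 genes. There 7 genes were below their own mean over the 6 libraries, with a median deviation of −0.20 on the log2(FPKM + 1) scale, and in KO replicate 3 also 7, with −0.09. KO replicate 1 resembled WT, with a median deviation of 0.07 beside 0.11, 0.11 and 0.02 in WT replicates 1, 2 and 3. The score of the 14 brown fat markers was lowest in the same library at −0.39, with −0.28 in KO replicate 3 and −0.04 in KO replicate 1, and all 3 lay below the WT scores of 0.15, 0.19 and 0.37. Its part in the pattern was not tested.

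**Figure D4:**
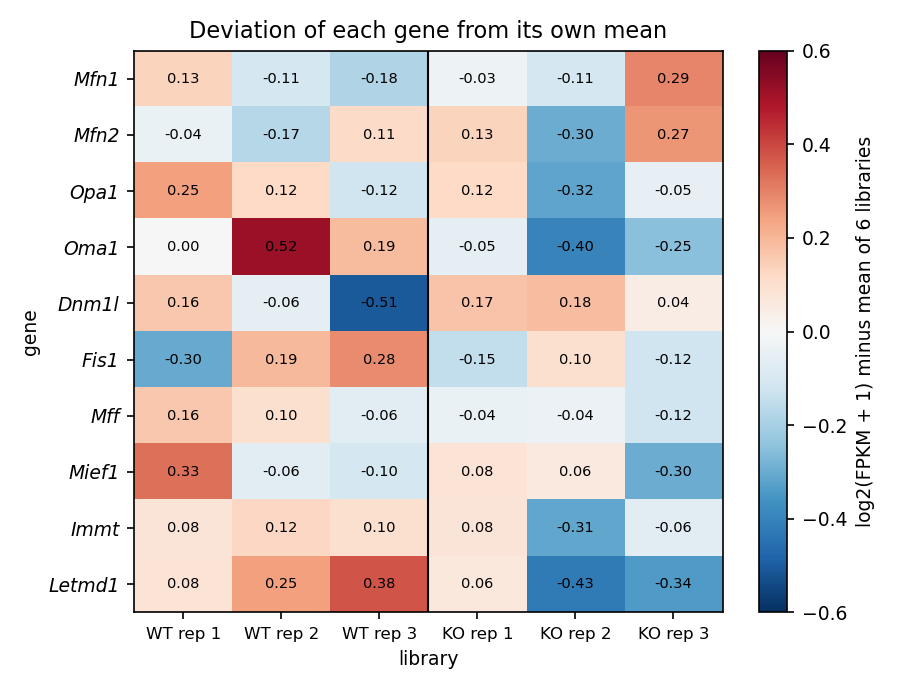
Deviation of log2(FPKM + 1) from the mean of the 6 libraries for each gene (rows) and library (columns), with the value printed in each cell. KO replicate 2 is lowest in 5 rows, and the deepest cell of WT replicate 3 is Dnm1l at −0.51.

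In 6 wider lists of related genes, 64 of 82 genes (78.0%) were lower in the KO mean, against 48.4% of all genes tested. The lists were chosen with earlier results of these data known. Genes measured in the same libraries are not independent observations, so these shares are a description. A single gene of the 82 passed (1.22%), under the 2.21% of all genes tested. Of 12 other fusion genes 10 were lower and 2 higher, 0 passed, and the median log2 difference was −0.15. Fam73b, the gene of mitoguardin 2, went from 51.97 ± 1.61 to 37.9 ± 10.7 FPKM (SD, n = 3 each; limma, log2 difference −0.48, adjusted p 0.238). Phb, a prohibitin of the inner membrane, went from 203.7 ± 33.7 to 162.8 ± 17.07 FPKM (limma, −0.31, adjusted p 0.342). Of 15 other fission genes 11 were lower and 4 higher, 0 passed, and the median was −0.17. The fission factor gene Mtfp1, of the inner membrane, stood at 19.96, 23.8 and 23.8 FPKM in the WT libraries, against 17.02, 8.55 and 11.2 FPKM in the KO libraries (limma, log2 difference −0.87, adjusted p 0.0832). Akap1, which anchors protein kinase A at the outer membrane, stood at 115.9, 100.6 and 89.4 FPKM in the WT libraries, against 77.4, 63.5 and 42.7 FPKM in the KO libraries (limma, −0.76, adjusted p 0.107). The groups did not overlap in either gene, as in 24.9% of all genes tested.

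Among 16 other inner membrane shape genes 10 were lower and 6 higher, with a median of −0.13. Dnajc11, a J-domain protein that associates with the cristae junction complex, stood at 50.08, 52.1 and 40.4 FPKM in the WT libraries, against 28.7, 21.9 and 26.1 FPKM in the KO libraries, with a wide gap between the groups. It fell by 0.87 on the log2 scale (SE 0.16; limma, adjusted p 0.0389), the single gene past the test in these 6 lists. That call was lost in 7 of 15 alternatives, among them leaving out WT replicate 2 (limma, adjusted p 0.170), WT replicate 3 (0.0727), KO replicate 1 (0.0634), KO replicate 2 (0.0906) or KO replicate 3 (0.0934). The other LETM1 domain genes were looked up after the values were seen. Letm1, of inner membrane cation exchange, differed by −0.64 (limma, adjusted p 0.182) and the low-level Letm2 by 0.69 (limma, adjusted p 0.0520), from 1.74 ± 0.216 to 3.44 ± 0.390 FPKM (SD, n = 3 each). Letm2 passed in 3 of 14 alternatives: with a pseudocount of 0.1 (limma, adjusted p 0.0495), without the trend (0.0481) and with array weights (0.00365).

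Cardiolipin is the inner membrane lipid on which OPA1 and cristae depend. Of 10 genes for its synthesis and remodelling 8 were lower and 2 higher, 0 passed, and the median was −0.15. The acyltransferase gene Lclat1 differed by −0.52 (limma, adjusted p 0.224) and Triap1, a partner in lipid transfer between the membranes, by −0.39 (limma, adjusted p 0.248). All 7 genes tested for mitochondrial movement along the cytoskeleton were lower, with a median of −0.20, and 0 passed. The Miro GTPase gene Rhot2 differed by −0.67 (limma, adjusted p 0.0675) and the motor adaptor gene Trak2 by −0.52 (limma, adjusted p 0.0921).

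As a yardstick of mitochondrial transcripts in general, 22 genes were listed. They cover protein import, outer membrane porins, matrix chaperones and proteases, citrate synthase (Cs) and mitochondrial DNA upkeep. Of these 18 were lower and 4 higher, 0 passed, and the median was −0.16, beside −0.12 for the 10 genes and 0.01 for all genes tested. Their summed level was 4833 to 5056 FPKM in WT and 4277 to 4454 FPKM in KO. Cs adds most to that sum, at 1334 to 1549 FPKM in WT and 1260 to 1374 FPKM in KO. The inner membrane translocase gene Timm17a differed by −0.51 (limma, adjusted p 0.0673) and the import pore gene Tomm40 by −0.67 (limma, adjusted p 0.0775). Letmd1 and Oma1, at −0.47 each, lay below the median of that list and within its range. The equal values reflect the pseudocount of 1, which dampens the difference of the low-level Oma1. With a pseudocount of 0.1 the log2 differences were −0.59 for Oma1 and −0.47 for Letmd1. The KO means were 64.9% of WT for Oma1 and 72.7% for Letmd1.

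**Figure D5:**
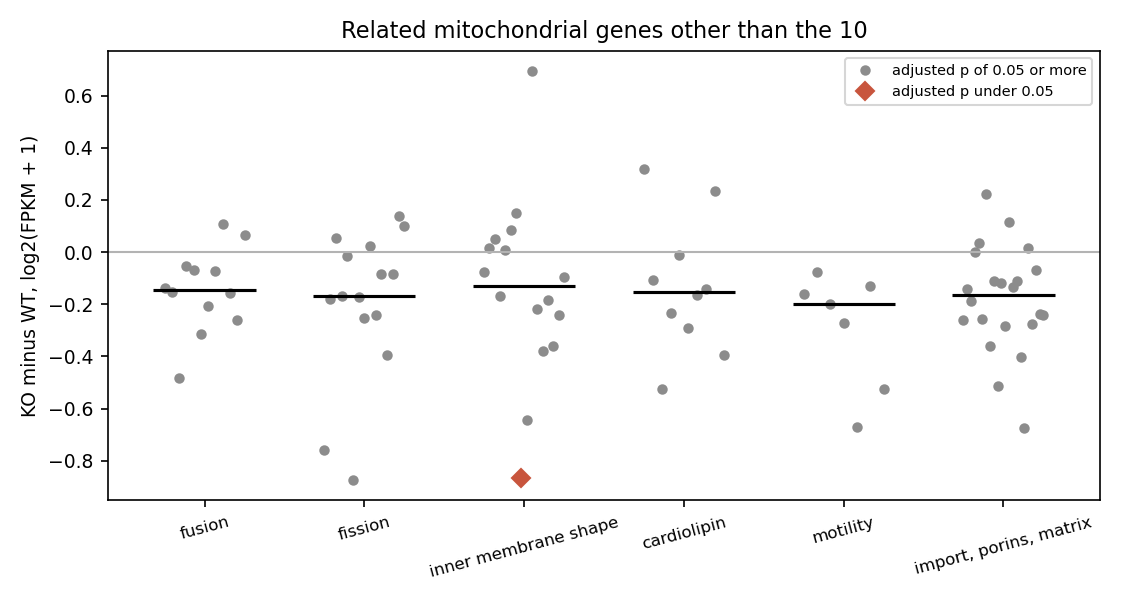
Difference between KO and WT on the log2(FPKM + 1) scale for genes of the 6 wider lists without the 10 genes, with a point for each gene and a line for the list median. The medians lie between −0.20 and −0.13, and the diamond is Dnajc11, the single gene with an adjusted p under 0.05.

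Letmd1 had the smallest p of the 10 genes, and the 5 genes with the most similar profile across the 6 libraries were Pgap3, Gys1, 2010003K11Rik, Elp5 and Fam173b. Their Pearson correlations with Letmd1 on the log2(FPKM + 1) scale were 0.986, 0.985, 0.985, 0.979 and 0.979. With 6 libraries in 2 groups and 13331 genes, such values are a description alone. Gys1, a glycogen synthase gene, stood at 66.4, 74.3 and 81.2 FPKM in the WT libraries, against 68.9, 54.6 and 58.8 FPKM in the KO libraries. Fam173b stood at 7.27, 9.07 and 8.77 FPKM in the WT libraries, against 6.59, 3.89 and 3.77 FPKM in the KO libraries. Like Letmd1, both were higher in KO replicate 1 than in the other KO libraries, as their choice by profile made likely.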

How the data were processed

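The deposited table gives 1 FPKM value per Entrez gene and library, per the file headers; the submitters' processing notes list HISAT2 2.0.4, Bowtie2 2.2.5, DESeq2 and mm10 without roles. Quantifier, filters and strand use are not given in the sources used here, so reads shared with overlapping genes (Gnb4 with Mfn1, noncoding genes at Oma1, Mff and Letmd1, a pseudogene at Immt) cannot be assigned, and isoforms are not separated. FPKM are not counts, so limma 3.58.1 (R 4.3.3, trended eBayes) was fitted to log2(FPKM + 1) for genes averaging 0.5 FPKM or more over the libraries; log2 differences understate changes of low genes. Ratios were tested by exact two-sided permutation. The fit was tested on simulated data. Steps between low values of short transcripts (500 to 1300 nt, offset 50 nt) gave an estimated 13900000 to 15100000 reads per library. The depth was chosen to put the most values near whole reads. At that depth 69.4% to 73.7% of the values used lay within 0.2 of a whole read. Values without such steps would also often lie that near, so the read numbers are rough. Library FPKM summed to 486449 to 556968. Gene positions and promoters are RefSeq's for GRCm38.p6; all 10 genes matched. The members and lists were chosen with earlier results of these data known. Genes named from each wider list were those past the threshold, otherwise the 2 with the smallest p. Of the marker lists, endothelial (8 genes, median −0.04), red cell (8, −0.51), Schwann cell (7, −0.06), muscle (12, −0.66) and macrophage (10, 0.36) had 0 genes past the test, and brown fat (14, −0.15) had 2, both lower. Alternatives were another pseudocount, filters, scalings, variance models, the replicate block and leaving out each library.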

Additional observations from a re-analysis of the deposited data

How the results depend on the processing

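No member passed in 14 of 15 alternatives. With array weights 1 did, Oma1 (log2 difference −0.65; limma, adjusted p 0.0132), where WT replicate 2 weighed 6.70 and the others 0.37 to 1.67, the weights did not converge, and 3181 genes were called over the table. There Letmd1 had an adjusted p of 0.0521 (limma), and its alternatives ran from there to 0.42; that of Oma1 was 0.0132 to 0.509. Over all genes the count was 295, 35 without the filter on low values, and 34 to 444 when each library was left out in turn. No member passed in those fits. Letmd1, Oma1, Opa1, Dnm1l, Fis1, Mff and Immt kept their direction in every alternative run; Oma1 has 14, being below a mean of 5 FPKM. Mief1 turned with array weights (0.038), and without 1 library it ran from −0.186 to 0.0307, turning without WT replicate 1 and without KO replicate 3 (0.016). Mfn2 ran from −0.0506 to 0.233, turning without KO replicate 3 and without WT replicate 2 (−0.0028), and Mfn1 from −0.0168 to 0.197, turning without KO replicate 3. Without 1 library the Mfn2 to Mfn1 ratio ran from −0.139 to 0.103 on the log2 scale (0.048 without KO replicate 2), Immt to Opa1 from −0.125 to 0.0729, Opa1 to Oma1 from 0.29 to 0.67 and Dnm1l to Mff from 0.28 to 0.51. No scaling turned a member. The cause was not tested. Replicate numbers recur in both groups, but the labels do not say that they pair animals, so they were not treated as pairs. Over all genes tested the deviations of equally numbered libraries correlated at 0.068, 0.043 and 0.043. These values were low but above those of the other combinations, which ran from −0.078 to 0.029. The replicate block gave 167 genes and 0 members (Letmd1 adjusted p 0.239, Oma1 0.258, limma). Pairing leaves the mean ratios as they are by construction. The exact p went from 0.1 to 0.25 for Dnm1l to Mff and from 0.3 to 0.5 for Opa1 to Oma1. For Dnm1l to Mff both are the smallest p the test can give, unpaired and with 3 pairs. That rise is therefore set by the design. Oma1 had the fewest reads, with a counting error below its spread between replicates but above the gap between its groups.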

Other observations

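Values chosen after they were seen are given here without a test. The ratio of Letmd1 to Immt, the other abundant inner membrane gene, was 0.93, 1.02 and 1.13 in WT replicates 1, 2 and 3 and 0.92, 0.86 and 0.77 in KO, so the KO libraries lay below the WT libraries, by little in replicate 1. Per 1000 FPKM of Ucp1 there were 50.6, 40.5 and 43.4 FPKM of Letmd1 in WT and 75.2, 91.5 and 45.9 in KO, so that 2 KO libraries stood above all WT libraries in Letmd1 relative to Ucp1 while Letmd1 was at 72.7% and Ucp1 at 48.9% of the WT mean in KO.

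Among the 4 member ratios tested, the spread was smaller in KO than in WT. The SD of the log2 ratio was 0.05 in KO and 0.41 in WT for Opa1 to Oma1, 0.03 and 0.23 for Dnm1l to Mff, 0.03 and 0.20 for Immt to Opa1, and 0.18 and 0.25 for Mfn2 to Mfn1. Letmd1 to Immt did not share this, with 0.13 and 0.14. With 3 libraries a group and pairs that share Opa1, the difference in spread was not tested.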
